A study of Mus musculus with 19 samples.

Results

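APPPS1-21 mice treated with an inhibitor mixture against 3 microRNAs were compared with wild-type mice by RNA sequencing of the CA1 region of the hippocampus. The comparison took in 7 libraries of the treated group (APP anti-miR-mix 1 to 7) and 6 libraries of the wild-type group (WT control 1 to 6), 13 of the 19 libraries of the series, and used the raw read counts per gene. A gene entered when it had at least 5 counts in at least 50% of these 13 libraries, which left 19318 genes. The APPPS1-21 line bears mutated human transgenes, of which one is APP, under regulatory sequence of Thy1, a gene of mature neurons, so that transgene expression is mainly neuronal and amyloid is deposited in the brain. The wild-type animals were littermates. All mice were 7 months old, per the labels, and all received lipid nanoparticles in the dorsal hippocampus. The nanoparticles held inhibitors of miR-146a-5p and miR-148a-3p, together with one of miR-181a-5p, in the treated group and a control oligonucleotide in the WT control group, according to the study. WT control titles in the labels mention the anti-miR mixture together with "control", and they are read here as the study describes them. The treated group therefore differed from WT control in both genotype and treatment, and these cannot be told apart within the 13 libraries. The 6 APP control libraries, from APPPS1-21 mice that received the control oligonucleotide, are given beside them where a value bears on this. The APP control and treated groups were each compared with the same WT control libraries.

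CA1 is the output field of the hippocampus, where pyramidal neurons receive excitatory input from CA3 and are held in check by several classes of interneurons. Around amyloid plaques, microglia take on a state marked by Trem2 signalling, phagocytosis and lysosomal enzymes, and astrocytes raise intermediate filament proteins such as Gfap. In neurons, firing and synaptic calcium entry switch on immediate early genes within minutes, and these encode transcription factors, phosphatases and synaptic regulators. MicroRNAs pair with target transcripts through their seed, bases 2 to 8 from the 5′ end, and shorten the life or the translation of these transcripts.

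The sequences of the 3 microRNAs define what the mixture was designed to bind, and are shown with the seed in capitals, 5′ to 3′, from RefSeq on GRCm38.p6. The mature miR-146a-5p lies on the minus strand at chr11:43374435-43374456 and miR-148a-3p on the minus strand at chr6:51269829-51269850. The mature miR-181a-5p is encoded at both chr1:137966468-137966490 and chr2:38852741-38852763, on the plus strand. No seed is shared among them.
miR-146a-5p: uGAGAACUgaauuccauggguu
miR-148a-3p: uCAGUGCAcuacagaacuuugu
miR-181a-5p: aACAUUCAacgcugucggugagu
The inhibitors are listed by the study as the complements of these sequences. The capitals mark the bases that face the seed.
Inhibitor of miR-146a-5p: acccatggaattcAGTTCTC
Inhibitor of miR-148a-3p: caaagttctgtagTGCACT
Inhibitor of miR-181a-5p: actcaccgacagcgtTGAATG
Negative control for the inhibitors: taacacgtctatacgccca
The inhibitor of miR-146a-5p faces bases 2 to 21 of its microRNA, that of miR-148a-3p bases 3 to 21 and that of miR-181a-5p bases 3 to 23. MicroRNAs themselves were not measured by these libraries.

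Total counts were 19362343 to 35058913 per library in WT control and 27242283 to 37018917 in the treated group. Mitochondrial genes took 2.97 to 4.58% and 2.84 to 4.87% of them. On the first principal component, with 36.8% of the variance over 14072 genes, the treated libraries lay between -19.2 and -2.2 and the WT control libraries between 0.7 and 28.1, so the groups did not overlap. WT control 1 and 5 held more microglial RNA than the other WT control libraries, with summed levels of 21657 and 22469 normalized counts over 16 homeostatic microglial genes against 15716 to 18572 in the others. WT control 5 and APP anti-miR-mix 6 had the highest summed levels over the choroid plexus list, 10496 and 10305 normalized counts. Enpp2 had the highest mean of that list, and whether these sums reflect choroid plexus tissue was not tested. Counts of calls without these libraries are given beside the main counts and beside several gene lists. All 10 CA1 pyramidal markers passed the filter, and so did all 10 dentate gyrus, 10 neocortical, 8 thalamic and 8 striatal markers, so this does not tell CA1 from neighbouring tissue. In bulk tissue such as this, fewer cells of a type and less RNA per cell cannot be told apart.

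Of the 19318 genes, 1878 were called (9.72%) at an adjusted p below 0.05, 1179 higher in the treated group (6.1%) and 699 lower (3.62%). The call is DESeq2's Wald test with Benjamini-Hochberg adjustment, and an adjusted p without another tool's name comes from it. Values are normalized counts, that is, counts divided by the size factor of the library, and a log2 fold change is treated over WT control. The higher and lower genes were of different size: the median log2 fold change was 0.63 among genes called higher and -0.24 among genes called lower, against -0.02 over all genes tested. The counts of genes that share exon bases with another annotated gene can hold reads of that gene, since strandedness was not stated: among those named this holds for Dusp1 (Ergic1), Junb (Prdx2), Slc8a1 (Gm11096), Pex5l (Gm37459), 1700016P03Rik (Ovca2), Csf1r (Hmgxb3), Hexa (Tmem202), Abi3 (Gngt2) and Igf2 (Igf2os). At least a doubling was seen in 315 higher genes, and a halving or more in 11 lower genes. Of the lower calls, 373 had an absolute log2 fold change under 0.25, compared with 149 of the higher calls. With edgeR's quasi-likelihood test 1009 genes were higher (5.22%) and 290 lower (1.5%), so that 62.8% of the calls were higher with DESeq2 and 77.7% with edgeR. In simulated data with far fewer changed genes, 15.6% of DESeq2's calls and 4.54% of edgeR's were false. Both tools called 993 genes higher and 288 lower. The shares over all genes, 6.1% higher and 3.62% lower (edgeR 5.22% and 1.5%), stand beside every count of list members called below. The lowest and highest libraries of the groups did not overlap for 483 genes higher in the treated group (2.5%) and 174 lower (0.901%).

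The lower calls moved more with single libraries than the higher ones. Leaving out each library in turn gave 413 lower genes without WT control 4, 418 without WT control 6 and up to 842 without WT control 1, while the higher genes numbered 943 without WT control 6 to 1386 without WT control 1. Without WT control 1 and 5, 831 genes were lower and 1365 higher, and without WT control 5 and APP anti-miR-mix 6 the counts were 423 and 995. Of the 140 calls among genes chosen by the naming rule, 26 were lost when at least 1 single library was left out, and all of these had an adjusted p of 0.00791 or more. Those lost without 5 or more different libraries included Cplx3, Srebf2, Aqp4, Trim30a, Stat2, Xpo5, Irf9, Tef, B2m, Gabra5, Ccn3, Mlc1, Tnr, Tlr4, C4b, Oas1a, Pde10a and 2600014E21Rik. Those lost without 1 to 3 libraries included Bhlhe41, Kcnma1, Bmp4, Plcz1, Egr1 and Dicer1.

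**Figure D1:**
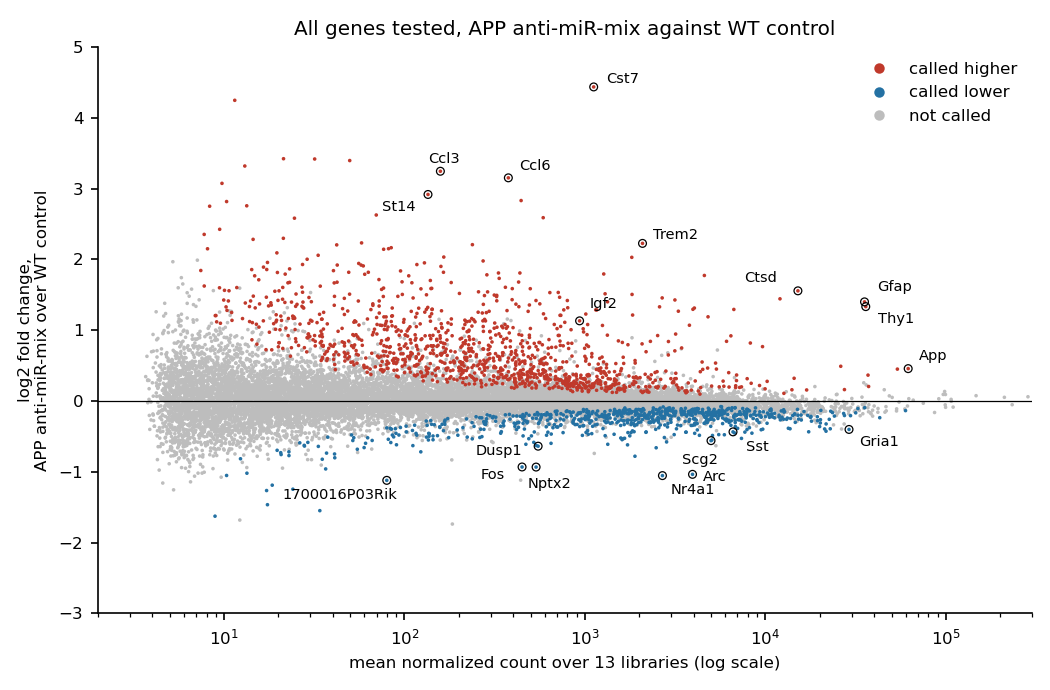
Log2 fold change (APP anti-miR-mix over WT control) against the mean normalized count over 13 libraries on a log scale, 1 point per gene tested. Red points were called higher (1179), blue points were called lower (699) and grey points were not called. Red points reach a log2 fold change of 4.44 for Cst7, while 373 of the blue points lie within 0.25 of 0.

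Thy1 and App were higher in every treated library than in any WT control library. Thy1, the surface glycoprotein of neurons whose regulatory sequence drives the transgenes (chromosome 9, 44043384 to 44048579 on GRCm38), lay at 18142 to 20776 (median 19894) normalized counts in WT control and at 43184 to 54338 (median 50808) in the treated group (log2 fold change 1.33, SE 0.06, adjusted p = 6.88e-100). App, the precursor of the amyloid peptide (chromosome 16, 84949685 to 85173766), had 49092 to 54935 (median 51024) in WT control and 65446 to 75111 (median 69928) in the treated group (log2 fold change 0.46, SE 0.04, adjusted p = 9.14e-26). For both genes the groups did not overlap, and APP control had log2 fold changes of 1.40 and 0.50. Reads from the transgene transcripts can align to these mouse genes, so the values do not separate the mouse gene from the transgene. Of the 20 genes of a list on secretases and APP processing, 4 were called higher and 2 lower (6.1% and 3.62% over all genes). Sorl1, a sorting receptor that steers APP away from cleavage, had 13482 to 17427 (median 15059.8) in WT control and 9637 to 13248 (median 11855) in the treated group (log2 fold change -0.39, SE 0.09, adjusted p = 1.97e-04). Apba2, an adaptor that binds the tail of APP, fell as well (log2 fold change -0.22, SE 0.06, adjusted p = 0.00636), and Adam17, a metalloprotease of the alpha-secretase kind, was among the higher genes (log2 fold change 0.26, SE 0.09, adjusted p = 0.0333). Both Adam17 and Apba2 fell outside the naming rule and were chosen after their values were seen.

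Genes of microglia at plaques rose together. Of 32 genes on a list of them, 29 were called higher and none lower, with a median log2 fold change of 1.45. Lyz2, Gpnmb and Lgals3 were not called. Trem2, the lipid-sensing receptor of microglia, lay at 471 to 1013 (median 604) in WT control and at 2429 to 4523 (median 3032) in the treated group (log2 fold change 2.23, SE 0.18, adjusted p = 7.58e-30). Tyrobp, its signalling adaptor, had 448 to 1009 (median 585) in WT control and 2113 to 3764 (median 2699) in the treated group (log2 fold change 2.03, SE 0.19, adjusted p = 2.27e-23). The lowest treated library exceeded the highest WT control library for both genes.

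Cst7, an inhibitor of lysosomal cysteine proteases, had the largest fold change among the genes with a mean of at least 50 normalized counts. It lay at 27.3 to 251 (median 44.9) in WT control and at 1308 to 3301 (median 1682) in the treated group (log2 fold change 4.44, SE 0.53, adjusted p = 2.21e-14). The chemokine Ccl3 had 9.09 to 56.0 (median 24.7) in WT control and 201 to 397 (median 263) in the treated group (log2 fold change 3.25, SE 0.30, adjusted p = 2.18e-24), and the chemokine Ccl6 had 36.7 to 119.5 (median 67.3) in WT control and 437 to 896 (median 567.9) in the treated group (log2 fold change 3.15, SE 0.23, adjusted p = 4.08e-39). Itgax, the integrin CD11c, had 32.1 to 237 (median 92.0) in WT control and 439.7 to 1008 (median 639) in the treated group (log2 fold change 2.83, SE 0.41, adjusted p = 3.94e-10). St14, a serine protease of the cell surface, had 9.09 to 44.2 (median 31.8) in WT control and 172 to 316 (median 207) in the treated group (log2 fold change 2.92, SE 0.23, adjusted p = 1.26e-32), and Pdcd1, the PD-1 receptor, had 7.57 to 39.3 (median 15.6) in WT control and 46.1 to 179.9 (median 129.9) in the treated group (log2 fold change 2.63, SE 0.34, adjusted p = 3.51e-12). In APP control the log2 fold changes over WT control were 4.25 for Cst7, 3.04 for Ccl3, 2.43 for Itgax and 2.12 for Pdcd1. Further genes among those with the smallest adjusted p were Baiap2l2, a membrane-bending protein (log2 fold change 1.58, SE 0.13, adjusted p = 8.76e-29), and Tbxas1, thromboxane synthase (log2 fold change 1.54, SE 0.13, adjusted p = 6.44e-28).

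Markers of homeostatic microglia were higher as well. All 16 genes of this list were called higher, with a median log2 fold change of 0.90, against 1.45 for the plaque list. edgeR called 15 of them, and 15 or 16 were called as single libraries were left out. Fcrls, an Fc receptor-like gene of microglia, had 720.4 to 1258 (median 908) normalized counts in WT control and 1972 to 3349.8 (median 2631) in the treated group (log2 fold change 1.505, SE 0.15, adjusted p = 7.04e-22). Csf1r, the receptor on which microglia depend for survival, had 3706 to 5353 (median 4135) in WT control and 6815 to 9565 (median 8713) in the treated group (log2 fold change 0.92, SE 0.10, adjusted p = 5.91e-16). Cx3cr1, the fractalkine receptor, had 1649 to 2689.9 (median 2053) in WT control and 3443 to 4884 (median 4027) in the treated group (log2 fold change 0.95, SE 0.12, adjusted p = 1.01e-13). P2ry12 and Tmem119, defining markers of the homeostatic state, had log2 fold changes of 0.52 (adjusted p = 0.0466) and 0.52 (adjusted p = 0.00966). They were the members with the largest adjusted p of the list and were chosen after their values were seen.

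Receptors and signalling proteins of microglia followed, with 23 of 30 called higher, none lower and a median log2 fold change of 0.90. Fcgr3, a low-affinity IgG receptor, had 342 to 576 (median 384) in WT control and 845 to 1444 (median 1173) in the treated group (log2 fold change 1.42, SE 0.15, adjusted p = 1.11e-19). Inpp5d, the inositol phosphatase SHIP1, had 514 to 744 (median 621) in WT control and 1024 to 1495 (median 1360.4) in the treated group (log2 fold change 1.02, SE 0.11, adjusted p = 1.47e-16), and Abi3, an actin regulator, had 37.8 to 59.9 (median 48.5) in WT control and 92.1 to 134 (median 114) in the treated group (log2 fold change 1.20, SE 0.14, adjusted p = 5.27e-16). Cd14, the co-receptor for lipopolysaccharide, rose by 1.52 on the log2 scale (SE 0.17, adjusted p = 1.07e-15).

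Among complement genes both anaphylatoxin receptors and the 3 C1q chains rose. In all, 9 of 21 were called higher (6.1% over all genes) and none lower, with a median log2 fold change of 0.14. C1qa, a chain of the C1q molecule, had 1594 to 3434 (median 1899) in WT control and 3757 to 6871 (median 5744) in the treated group (log2 fold change 1.31, SE 0.19, adjusted p = 4.97e-10), and C1qc changed to a like extent (log2 fold change 1.27, SE 0.18, adjusted p = 1.84e-10). The anaphylatoxin receptor C3ar1 had 101 to 189 (median 143) in WT control and 335 to 632 (median 494) in the treated group (log2 fold change 1.81, SE 0.17, adjusted p = 6.61e-23), and C5ar1 had 22.4 to 46.3 (median 36.8) in WT control and 74.7 to 107 (median 98.7) in the treated group (log2 fold change 1.37, SE 0.17, adjusted p = 1.32e-13). C4b, the classical pathway component, had 3935 to 11076 (median 5091) in WT control and 6669 to 12093 (median 11471) in the treated group (log2 fold change 0.82, SE 0.28, adjusted p = 0.0407). Apart from the highest library, WT control 1, the WT control values did not reach the treated ones, but the C4b call was lost when any of 10 other libraries was left out.

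Lysosomal genes were called higher for 25 of 34, with none lower and a median log2 fold change of 0.52. Hexa, a subunit of beta-hexosaminidase, had 1475 to 2069 (median 1663) in WT control and 2805 to 3829 (median 3339) in the treated group (log2 fold change 0.92, SE 0.09, adjusted p = 4.13e-20). Man2b1, the lysosomal mannosidase, had 2090.2 to 2686 (median 2344) in WT control and 3505 to 4210.0 (median 3914) in the treated group (log2 fold change 0.71, SE 0.07, adjusted p = 6.75e-23). Laptm5, a lysosomal membrane protein of immune cells, rose by 1.46 on the log2 scale (SE 0.13, adjusted p = 4.80e-25) and Cd68, the macrophage lysosomal glycoprotein, by 1.79 (SE 0.19, adjusted p = 2.91e-19). Psap, the saposin precursor, was the member with the highest mean count and was not called, with a log2 fold change of 0.05 (adjusted p = 0.642). Among 16 genes of cholesterol and lipid transport, 6 were called higher and none lower. Npc2, which hands cholesterol out of the lysosome, had 1768 to 2568 (median 1961) in WT control and 2921 to 4302 (median 3735) in the treated group (log2 fold change 0.84, SE 0.11, adjusted p = 4.64e-12). Apoe, the main lipoprotein component of brain, had 35656 to 53580.1 (median 45089) in WT control and 49170.2 to 72631 (median 60145) in the treated group (log2 fold change 0.45, SE 0.11, adjusted p = 8.52e-04). Lpl, lipoprotein lipase, rose by 0.93 on the log2 scale (SE 0.18, adjusted p = 1.27e-05) and Pltp, the phospholipid transfer protein, by 0.31 (SE 0.07, adjusted p = 1.67e-04).

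Antigen presentation and interferon genes were higher on average, but most of them were not called. The medians were 0.54 and 0.54, with 4 of 19 and 4 of 25 called higher, none lower. DESeq2's counts turned on WT control 1: without it 15 antigen presentation genes and 16 interferon genes were called. Without WT control 1 and 5 the numbers were 12 and 14, without WT control 5 and APP anti-miR-mix 6 they were 2 and 0, and no interferon gene was called without WT control 2, 3 or 6 or without APP anti-miR-mix 3, 5 or 6. H2-DMb1, a chaperone of peptide loading on class II molecules, had 36.7 to 78.6 (median 45.3) in WT control and 77.2 to 121 (median 109) in the treated group (log2 fold change 1.01, SE 0.19, adjusted p = 3.13e-06). B2m, the light chain of class I molecules, had 2723 to 7459 (median 3853) in WT control and 4354 to 10249.7 (median 8089) in the treated group (log2 fold change 0.84, SE 0.28, adjusted p = 0.0299). H2-M3, a non-classical class I molecule, rose by 0.88 on the log2 scale (adjusted p = 6.62e-04) and Tapbp, the peptide-loading factor tapasin, by 0.45 (adjusted p = 0.0119). Trim30a, an interferon-induced ubiquitin ligase, rose by 1.03 on the log2 scale (adjusted p = 0.0250). Stat2, Irf9 and Oas1a, of the interferon signalling and antiviral machinery, had log2 fold changes of 0.36, 0.45 and 1.08, with edgeR adjusted p-values of 0.0566, 0.0704 and 0.117. Of the 20 interferon genes with a RefSeq promoter, 12 (60%) held GAAANNGAA, the core of the interferon-stimulated response element, on either strand within 250 bases before the start, against 8.18% of all RefSeq genes and 7.57% of the 13168 tested genes with a promoter.

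Astrocyte genes moved unevenly. Of 20 reactive astrocyte genes, 7 were called higher and none lower, with a median log2 fold change of 0.18. Gfap, the intermediate filament of astrocytes, had 14187 to 26639 (median 16580.4) in WT control and 34848 to 63613 (median 51060.4) in the treated group (log2 fold change 1.40, SE 0.18, adjusted p = 2.27e-12). Aspg, an asparaginase, had 98.5 to 247 (median 141) in WT control and 343 to 576 (median 459) in the treated group (log2 fold change 1.49, SE 0.20, adjusted p = 2.19e-11), and Ggta1, a galactosyltransferase, rose by 0.94 on the log2 scale (SE 0.19, adjusted p = 3.99e-05). Sphk1, sphingosine kinase, rose by 1.18 on the log2 scale (SE 0.26, adjusted p = 1.77e-04). Of 16 general astrocyte markers, 4 were called higher (6.1% over all genes), and this number ran from 1 without WT control 6 to 5 without WT control 1 as single libraries were left out. It was 6 without WT control 1 and 5, and 2 with edgeR and without WT control 5 and APP anti-miR-mix 6. They included Gjb6, a gap junction protein (log2 fold change 0.28, adjusted p = 0.00506), Aqp4, the water channel (log2 fold change 0.45, adjusted p = 0.0235), and Mlc1 (log2 fold change 0.22, adjusted p = 0.0348). Aqp4 and Mlc1 had edgeR adjusted p-values of 0.0704 and 0.0605. Slc1a2, the main glutamate transporter, had the highest mean and a log2 fold change of 0.02 (adjusted p = 0.919).

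**Figure D2:**
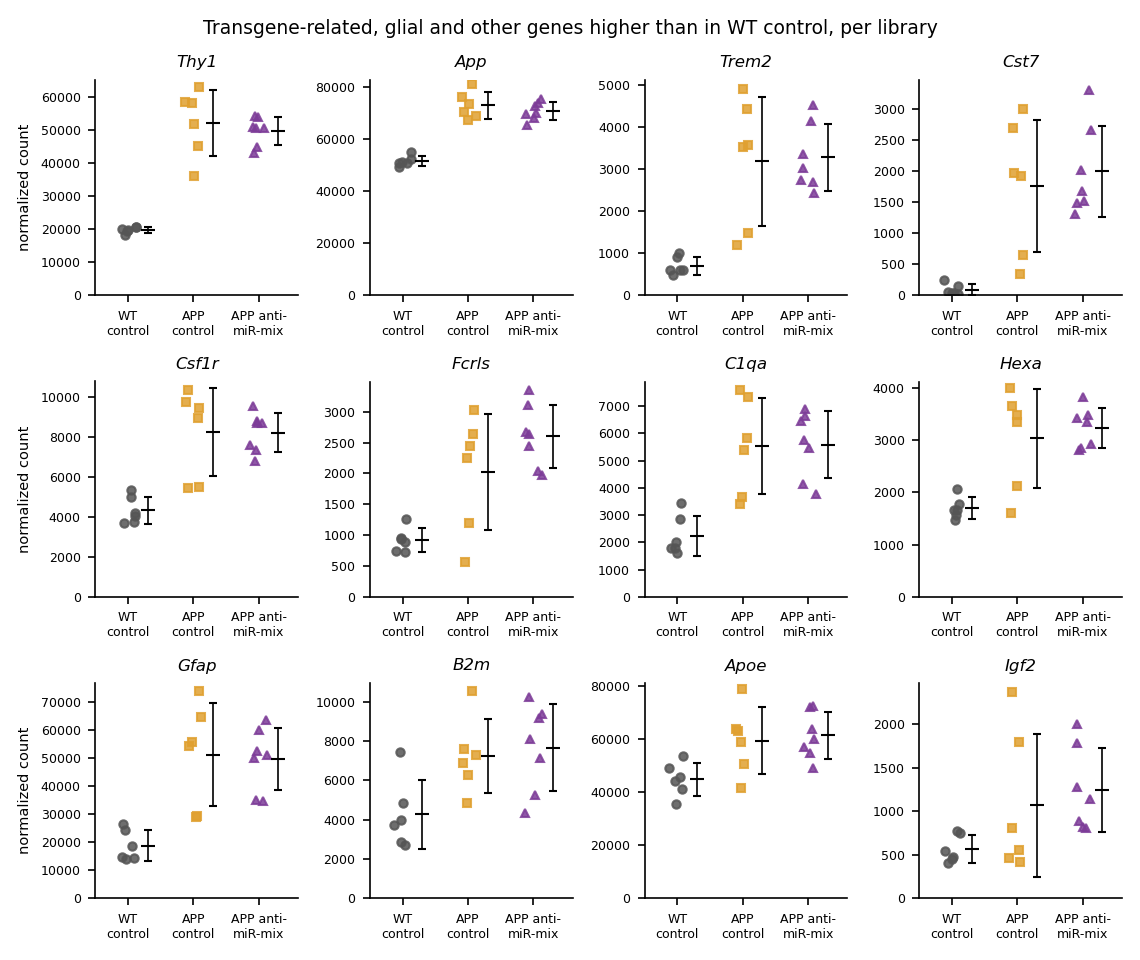
Normalized count per library (vertical axis from 0) for 12 genes higher in the treated group, with circles for WT control (n = 6), squares for APP control (n = 6) and triangles for APP anti-miR-mix (n = 7). Bars give the mean and SD. For Thy1, App, Trem2 and Cst7 every treated library lies above every WT control library, while B2m overlaps between the groups.

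Vessel and border cell genes were checked because the dissection can include them. Of 18 endothelial and pericyte genes, 5 were called higher (8 without WT control 1 and 5) and none lower, beside 6.1% called higher over all genes. Cdh5, the adhesion protein of endothelial junctions, had a log2 fold change of 0.49 (adjusted p = 5.66e-05), and Flt1, a receptor for vascular growth factor, one of 0.40 (adjusted p = 1.31e-04). Slc2a1, the glucose transporter of the blood-brain barrier, rose by 0.20 on the log2 scale (adjusted p = 7.37e-04) and Ly6c1 by 0.25 (adjusted p = 0.00747). Of 12 markers of meninges and fibroblasts, 10 were called higher, with a median log2 fold change of 0.98. Their summed level was 1543 to 2655 normalized counts in WT control, 2968 to 5578 in the treated group and 1798 to 7343 in APP control. Col1a2, a fibrillar collagen chain, had 156 to 287 (median 185) in WT control and 254 to 558 (median 474) in the treated group (log2 fold change 1.04, SE 0.20, adjusted p = 5.49e-06). Igf2, the growth factor of leptomeninges and choroid plexus, had 409.6 to 779 (median 510.3) in WT control and 811 to 2004 (median 1138) in the treated group (log2 fold change 1.13, SE 0.27, adjusted p = 5.48e-04). Aebp1 and Islr, matrix proteins, rose by 0.93 on the log2 scale (adjusted p = 8.06e-11) and 0.98 (adjusted p = 7.46e-07), and Slc22a6, an organic anion transporter, by 1.90 (adjusted p = 1.09e-04). None of the 9 choroid plexus markers tested, of 12 listed, was called by DESeq2 or edgeR, and Enpp2, the one with the highest mean, was among them (log2 fold change -0.12, adjusted p = 0.751). Without WT control 3 or without WT control 5, 1 of them was called higher. How much border tissue contributed to the other higher genes was not tested.

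Of the 11 T and B cell genes that passed the filter, out of 14 listed, Ighm, the IgM heavy chain, was the one called, and it had 379.6 to 710.3 (median 631) in WT control and 732 to 1106 (median 1055) in the treated group (log2 fold change 0.82, SE 0.16, adjusted p = 1.58e-05). None of 5 blood genes was called by either tool. Hbb-bs, a haemoglobin chain, had a log2 fold change of 0.48 (adjusted p = 0.394), with 312 to 618 (median 432) in WT control and 359 to 1318 (median 536) in the treated group.

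**Figure D3:**
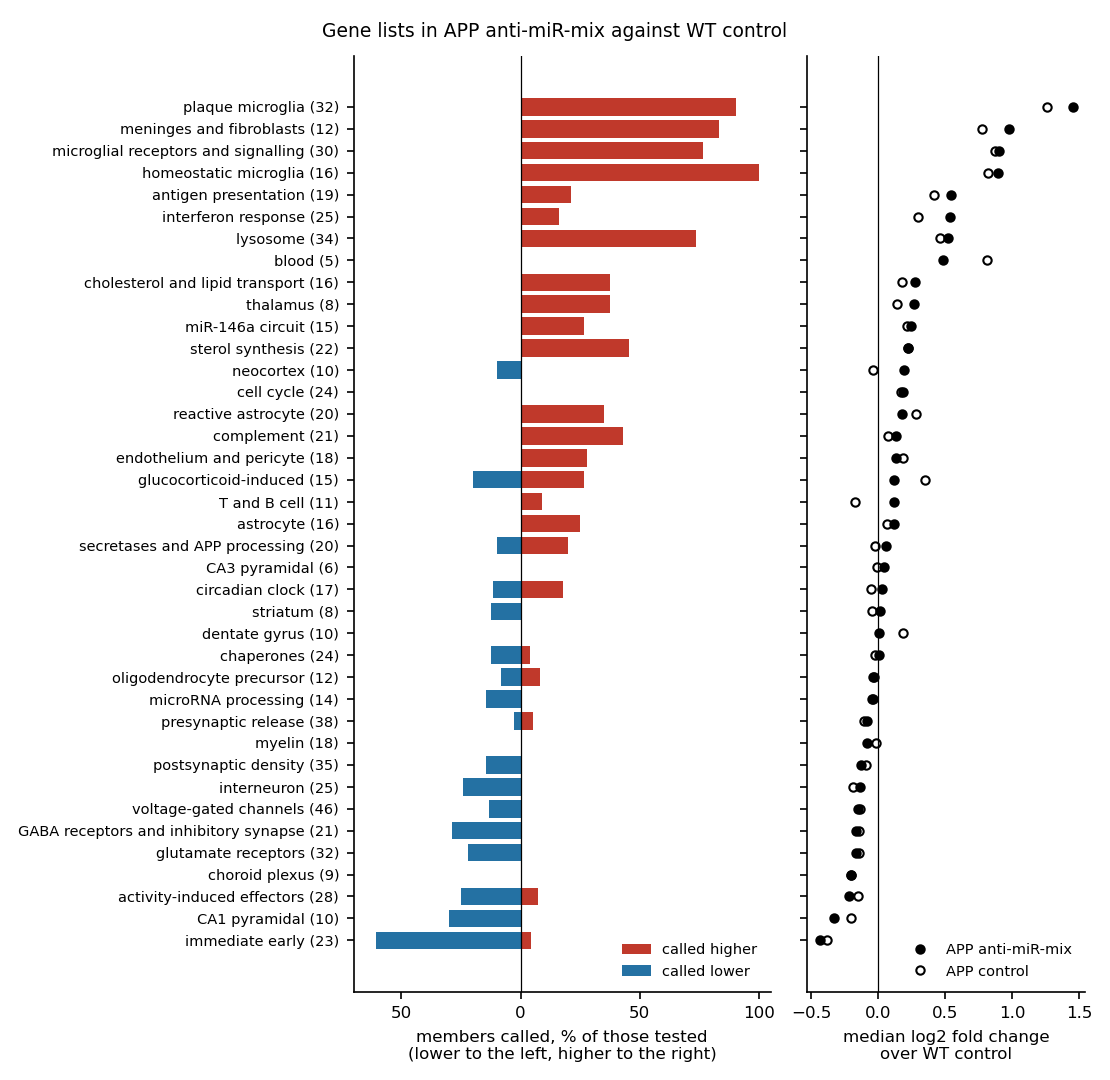
Share of the tested members of each of 39 gene lists called higher (red, to the right) or lower (blue, to the left), with the number tested in brackets, and the median log2 fold change over WT control in APP anti-miR-mix (filled) and APP control (open). The plaque microglia list stands at the top with a median of 1.45, followed by meninges and fibroblasts (0.98) and the other microglial lists (both 0.90), and the immediate early list stands at the bottom with a median of -0.43.

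The 699 genes lower in the treated group were longer and more strongly counted than the higher ones. Their median mean count was 2098, against 277.9 for the higher genes and 375 over all genes tested, and their median span from first to last base was 61524 bases, against 21929 and 18687.5. Protein-coding genes made up 660 of them. In APP control the same genes had a median log2 fold change of -0.17 over WT control, against -0.24 in the treated group. The genes were chosen by the test in the treated group, which tends to enlarge the change there, so the gap is not read as a result. The lists on neurons held few higher genes, and the lower genes among them are described by role. Counts of members in these lists stand beside 3.62% called lower and 6.1% called higher over all genes tested (1.5% lower with edgeR). Of all genes with 3000 to 10000 normalized counts 11.0% were called lower, of those above 10000 counts 15.6%, and of those spanning over 500000 bases 18.6%. Level and span were not matched in any list or family, so nothing particular to a list can be read from its share.

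Immediate early genes gave the most lower calls of the 39 gene lists, 14 of 23, with Maff, a small basic leucine zipper protein, the one called higher (log2 fold change 0.66, SE 0.22, adjusted p = 0.0286). Maff fell outside the naming rule and was chosen after its values were seen. The median log2 fold change was -0.43, and -0.38 in APP control. edgeR called none higher, and no gene of the list was called higher without WT control 2, 3, 4 or 6, without APP anti-miR-mix 3, 4, 5 or 6, or without WT control 5 and APP anti-miR-mix 6. edgeR called 10 of them lower, and 10 were called without WT control 1 and 5 and also without WT control 5 and APP anti-miR-mix 6. The nuclear receptor Nr4a1 (chromosome 15, 101254269 to 101274795) had the smallest adjusted p of all lower genes. It lay at 3077 to 4716 (median 3679) in WT control, 1725 to 2516 (median 2195) in APP control and 1424 to 2219 (median 1745) in the treated group (log2 fold change -1.05, SE 0.11, adjusted p = 2.26e-17). All treated libraries lay below all WT control libraries. Nr4a3, its relative, had 1755 to 2277 (median 1865) in WT control and 1117 to 1645 (median 1338) in the treated group (log2 fold change -0.55, SE 0.09, adjusted p = 6.04e-07).

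The synaptic regulator Arc (chromosome 15, 74669083 to 74672570), which removes AMPA receptors from the membrane, had 3883 to 8344 (median 5111) in WT control and 1602 to 3482 (median 2702) in the treated group (log2 fold change -1.04, SE 0.19, adjusted p = 1.74e-06). Fos, a subunit of the AP-1 transcription factor, had 435 to 831 (median 585) in WT control and 203 to 429 (median 311) in the treated group (log2 fold change -0.93, SE 0.18, adjusted p = 7.03e-06). Its groups did not overlap. Junb, the partner of Fos in AP-1, had 1457 to 1952 (median 1618) in WT control and 818 to 1319.6 (median 1119.6) in the treated group (log2 fold change -0.61, SE 0.11, adjusted p = 8.49e-07). The zinc finger factor Egr1 had 4228 to 5853 (median 4541) in WT control and 2709 to 5230.2 (median 3229) in the treated group (log2 fold change -0.46, SE 0.14, adjusted p = 0.0177), where the groups overlapped and edgeR gave an adjusted p of 0.0641. Dusp1, the phosphatase that switches off mitogen-activated kinases, had 613 to 762 (median 656) in WT control and 378 to 462 (median 451) in the treated group (log2 fold change -0.64, SE 0.07, adjusted p = 6.65e-16), with no overlap.

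The promoters of Dusp1, Scg2 and Sst, all called lower, hold the cAMP response element TGACGTCA, the palindrome bound by CREB, and are shown for that reason. Each run is the 250 bases before the RefSeq start on GRCm38.p6, read along the gene's own strand, which is the minus strand for all 3, with the element in capitals.
Dusp1, chr17:26508473-26508722: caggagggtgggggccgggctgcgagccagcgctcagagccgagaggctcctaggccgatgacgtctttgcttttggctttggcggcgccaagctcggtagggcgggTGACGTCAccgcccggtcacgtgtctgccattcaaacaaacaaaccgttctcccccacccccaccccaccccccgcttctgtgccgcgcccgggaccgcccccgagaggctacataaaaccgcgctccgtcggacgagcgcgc
Scg2, chr1:79440027-79440276: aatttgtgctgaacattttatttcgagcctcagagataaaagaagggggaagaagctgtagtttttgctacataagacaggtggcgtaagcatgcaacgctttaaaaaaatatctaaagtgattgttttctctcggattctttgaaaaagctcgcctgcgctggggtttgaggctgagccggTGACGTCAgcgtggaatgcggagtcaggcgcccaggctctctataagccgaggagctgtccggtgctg
Sst, chr16:23890845-23891094: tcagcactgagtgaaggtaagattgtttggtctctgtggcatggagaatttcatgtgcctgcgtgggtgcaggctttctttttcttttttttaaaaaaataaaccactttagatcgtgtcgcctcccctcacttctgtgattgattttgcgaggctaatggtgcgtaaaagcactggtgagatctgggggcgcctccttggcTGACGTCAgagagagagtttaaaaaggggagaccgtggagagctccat
The element begins 143 bases before the start in Dusp1, 68 bases in Scg2 and 48 bases in Sst. Of the 19 immediate early genes with a promoter in the table, 3 held it (15.8%: Btg2, Dusp1 and Maff), of which Dusp1 was called lower and Maff higher. Of the 21 activity-induced effectors with a promoter, 4 held it (Cartpt, Pcsk1, Plk2 and Scg2), of which Scg2 was the one called. It was held by 1.77% of all 27025 RefSeq genes and by 2.75% of the 13168 tested genes with a promoter. RefSeq promoters covered 1414 of the 1878 called genes, under 80%, so a search over all the calls was void. They covered 21 of the 28 activity-induced effectors, also under 80%, so the count in that list is given as a description and its share is not read.

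Effectors that neurons make in answer to activity had 7 of 28 called lower (3.62% over all genes) and 2 higher (Pdyn and Gadd45g, chosen after their values were seen; 6.1% over all genes), with a median log2 fold change of -0.22. Without APP anti-miR-mix 3, 11 were lower. Rgs4, which shortens signalling through G proteins, had 5559 to 7125 (median 6608) in WT control and 4346 to 4924 (median 4714) in the treated group (log2 fold change -0.47, SE 0.06, adjusted p = 2.60e-13). Scg2, the granin of dense-core vesicles (chromosome 1, 79434669 to 79440120), had 5009 to 6871 (median 6129) in WT control and 3349 to 4539.6 (median 4065) in the treated group (log2 fold change -0.56, SE 0.08, adjusted p = 1.06e-09). The treated libraries lay below the WT control libraries for both. Vgf, a neuropeptide precursor, had 4780.4 to 6605 (median 6232) in WT control and 3493 to 5260.3 (median 4123) in the treated group (log2 fold change -0.49, SE 0.10, adjusted p = 1.24e-04). Nptx2, a pentraxin that clusters AMPA receptors on interneurons, lay at 523 to 1172 (median 638) in WT control, 434 to 745 (median 603) in APP control and 275 to 462 (median 390.4) in the treated group (log2 fold change -0.93, SE 0.18, adjusted p = 5.44e-06). Bdnf, the neurotrophin, was also lower (log2 fold change -0.48, SE 0.12, adjusted p = 7.38e-04), though outside the naming rule. Nptx1, a relative of Nptx2, was not called (log2 fold change -0.10, adjusted p = 0.630).

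**Figure D4:**
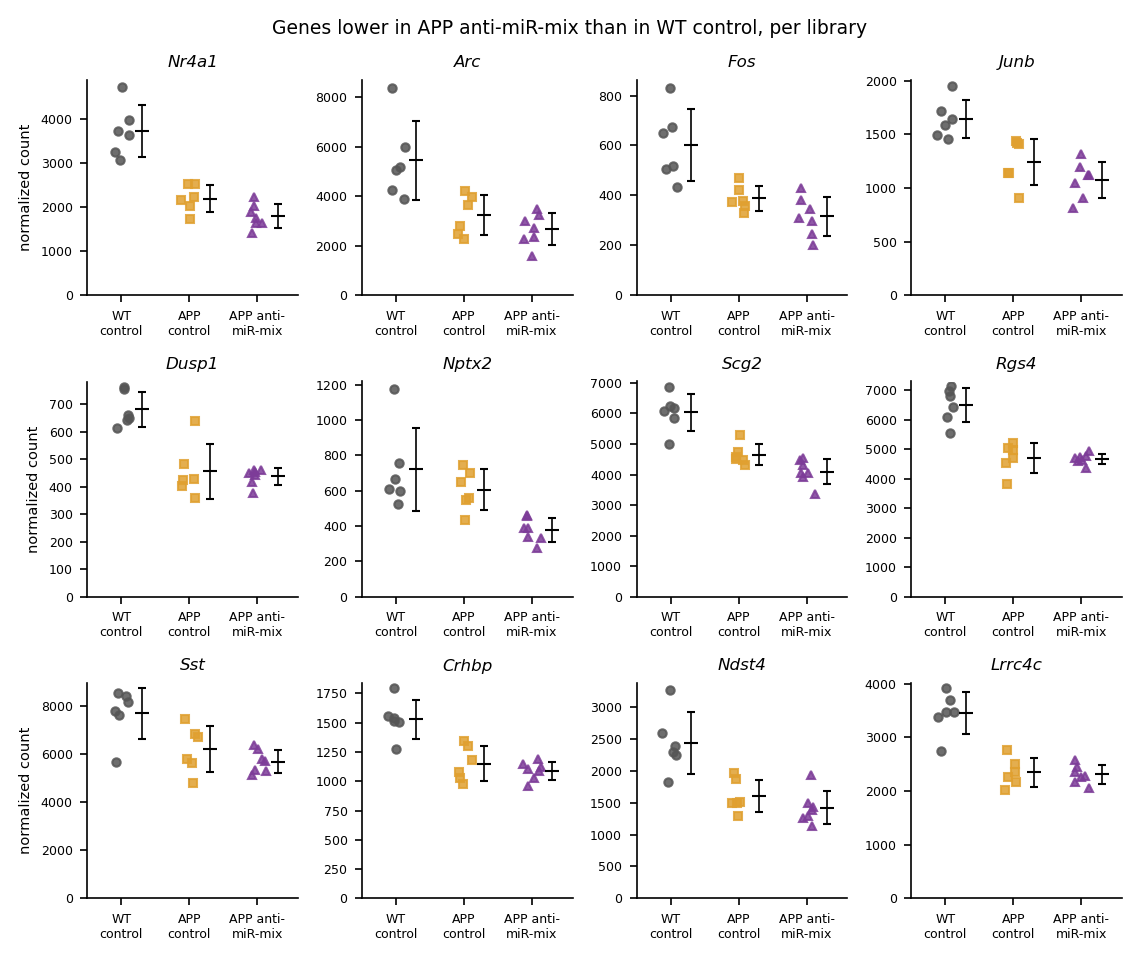
Normalized count per library (vertical axis from 0) for 12 genes lower in the treated group, with circles for WT control (n = 6), squares for APP control (n = 6) and triangles for APP anti-miR-mix (n = 7). Bars give the mean and SD. For Nr4a1, Fos, Dusp1, Scg2 and Rgs4 every treated library lies below every WT control library, and the APP control values of Nr4a1 overlap the treated ones.

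Among interneuron genes, some peptides were called lower, and so were the enzymes of GABA synthesis with DESeq2 but not with edgeR. Of 25 genes, 6 were called lower (3.62% over all genes) and none higher, 3 of them by edgeR (1.5% over all genes), with a median log2 fold change of -0.13. In APP control 7 were called lower than in WT control, with a median of -0.19. Somatostatin (Sst), the peptide of dendrite-targeting interneurons (chromosome 16, 23889573 to 23890958), had 5651 to 8546 (median 7972) in WT control and 5135 to 6372 (median 5716) in the treated group (log2 fold change -0.44, SE 0.09, adjusted p = 8.22e-05). Neuropeptide Y (Npy) had 978 to 1354 (median 1245) in WT control and 764 to 1028 (median 918) in the treated group (log2 fold change -0.42, SE 0.09, adjusted p = 1.19e-04), and Crhbp, the binding protein of corticotropin-releasing hormone, had 1271 to 1797 (median 1529) in WT control and 957 to 1187 (median 1108) in the treated group (log2 fold change -0.49, SE 0.08, adjusted p = 1.51e-08). Gad1, a GABA-synthesizing enzyme, fell (log2 fold change -0.23, adjusted p = 0.0102, edgeR adjusted p = 0.0520). Pvalb, the calcium buffer of fast-spiking interneurons, was not called (log2 fold change -0.13, adjusted p = 0.549), and was chosen after its values were seen.

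Receptors for glutamate were called lower for 7 of 32 and higher for none, with a median log2 fold change of -0.17. edgeR called 3 of them lower, as did DESeq2 without WT control 5 and APP anti-miR-mix 6. Grm3, a metabotropic receptor, had 1485 to 1888 (median 1705) in WT control and 1298 to 1487 (median 1402) in the treated group (log2 fold change -0.29, SE 0.06, adjusted p = 1.63e-04). Grin2b, an NMDA receptor subunit, had 20059 to 32535 (median 22536) in WT control and 16297 to 20580.2 (median 18723) in the treated group (log2 fold change -0.39, SE 0.11, adjusted p = 0.00918). The AMPA receptor subunits Gria3 and Gria1 had log2 fold changes of -0.26 (adjusted p = 0.00985) and -0.40 (adjusted p = 0.0114), and edgeR adjusted p-values of 0.0501 and 0.0515.

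At inhibitory synapses 6 of 21 genes were called lower and none higher, with a range from 3 (without WT control 4 or 6, or APP anti-miR-mix 1 or 6) to 8 as single libraries were left out, 3 without WT control 5 and APP anti-miR-mix 6 together, and 2 with edgeR. Gphn, the gephyrin scaffold, had 2285 to 2519 (median 2448) in WT control and 2097 to 2211 (median 2144) in the treated group (log2 fold change -0.18, SE 0.03, adjusted p = 6.16e-06). Gabrb2, a GABA-A receptor subunit, had 3892 to 5002 (median 4616) in WT control and 3008 to 3950.2 (median 3703) in the treated group (log2 fold change -0.32, SE 0.07, adjusted p = 2.65e-04). Gabbr1, of the metabotropic GABA-B receptor, and Gabra5, an extrasynaptic subunit, had log2 fold changes of -0.16 (adjusted p = 0.00258) and -0.35 (adjusted p = 0.0315), with edgeR adjusted p-values of 0.0509 and 0.0858.

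In the postsynaptic density 5 of 35 genes were called lower, none higher, and 32 had a negative log2 fold change. The lower calls numbered 3 without WT control 4, without WT control 6 and with edgeR. Lrrc7, the scaffold densin-180, had 2239 to 2862 (median 2441) in WT control and 1828 to 2163 (median 2031) in the treated group (log2 fold change -0.30, SE 0.07, adjusted p = 3.47e-04). Dlgap1, a scaffold beside PSD-95 (log2 fold change -0.22, adjusted p = 0.00427) and Sipa1l1, a regulator of spine shape (log2 fold change -0.23, adjusted p = 0.00707) were lower too. Camk2a, the calcium kinase of synapses, had the highest mean and was not called (log2 fold change -0.09, adjusted p = 0.717). In the presynaptic list 1 of 38 was called lower, Nrxn3, an adhesion protein (log2 fold change -0.21, SE 0.06, adjusted p = 0.00413), and 2 were called higher, Rims1 and Cplx3. The higher calls fell to 1 without APP anti-miR-mix 2, 3 or 7, WT control 5 or WT control 6, when Cplx3 was lost. The lower calls rose to 5 without APP anti-miR-mix 7, 4 without WT control 1 and 3 without APP anti-miR-mix 2 or without WT control 1 and 5. Rims1, a scaffold of release sites, had 4638 to 5929 (median 5383) in WT control and 6020.1 to 9147 (median 6999) in the treated group (log2 fold change 0.40, SE 0.10, adjusted p = 7.97e-04). Snap25, of the release machinery, was not called (log2 fold change -0.11, adjusted p = 0.551).

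Voltage-gated channels were called lower for 6 of 46 and higher for none, and 44 had a negative log2 fold change. The lower calls numbered 3 without WT control 6 and 11 without WT control 1. They were 10 without APP anti-miR-mix 3 or without WT control 1 and 5, 3 without WT control 5 and APP anti-miR-mix 6, and 3 with edgeR. Kcnh1, a potassium channel of the ether-a-go-go family, had 972 to 1293 (median 1108) in WT control and 877 to 999 (median 949.7) in the treated group (log2 fold change -0.24, SE 0.07, adjusted p = 0.00605). Lower as well were Scn8a, the sodium channel of the axon initial segment (log2 fold change -0.19, adjusted p = 0.00743), Kcna4, a fast-inactivating potassium channel (log2 fold change -0.34, adjusted p = 0.00901), and Kcnma1, the large-conductance calcium-activated channel (log2 fold change -0.26, adjusted p = 0.0139, edgeR adjusted p = 0.0520). Kcnab2, the channel subunit with the highest mean, was not called (log2 fold change -0.11, adjusted p = 0.627). Over the lists on glutamate receptors, inhibitory synapses, the postsynaptic density and channels, the genes called lower were thus 7 of 32, 6 of 21, 5 of 35 and 6 of 46, beside 3.62% of all genes tested. The shares of strongly counted and long genes given above apply to these lists too.

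Other genes with the smallest adjusted p among the lower ones had varied roles. Lrrc4c, the netrin-G ligand NGL-1 at excitatory synapses (chromosome 2, 96318169 to 97631666), had 2754 to 3917 (median 3472) in WT control and 2059 to 2579 (median 2284) in the treated group (log2 fold change -0.58, SE 0.08, adjusted p = 3.72e-11). Stxbp5l, the tomosyn-2 regulator of vesicle release, had 1863 to 2350.2 (median 2062) in WT control and 1363 to 1686 (median 1549.5) in the treated group (log2 fold change -0.45, SE 0.06, adjusted p = 7.28e-10). Slc8a1, the sodium-calcium exchanger, had 1746 to 2175 (median 2057) in WT control and 1227 to 1611 (median 1348) in the treated group (log2 fold change -0.53, SE 0.08, adjusted p = 1.33e-09), and Trmt9b, a putative tRNA methyltransferase, had 992 to 1319 (median 1150.1) in WT control and 719 to 933 (median 801) in the treated group (log2 fold change -0.49, SE 0.07, adjusted p = 6.93e-09). Cttnbp2, a cortactin-binding protein of dendritic spines (log2 fold change -0.44, SE 0.07, adjusted p = 2.23e-08), and Rapgef5, an activator of Rap (log2 fold change -0.37, SE 0.07, adjusted p = 1.91e-06), fell as well. Jcad, a junction protein, had a smaller change of -0.21 (SE 0.04, adjusted p = 9.65e-07), with 3814 to 4145 (median 3918) in WT control and 3189.6 to 3525 (median 3484) in the treated group.

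Markers of CA1 pyramidal cells were lower for 3 of 10 and higher for none, with a median log2 fold change of -0.33 in the treated group and -0.20 in APP control. The lower calls ran from 2 to 5, with 5 without WT control 2. Ndst4, a heparan sulfate enzyme, had 1823 to 3276 (median 2347) in WT control and 1130.0 to 1933 (median 1393) in the treated group (log2 fold change -0.78, SE 0.14, adjusted p = 5.49e-07). Pex5l, a subunit that regulates HCN channels, had 9560.3 to 12414 (median 10666) in WT control and 6630.1 to 8837 (median 8743) in the treated group (log2 fold change -0.41, SE 0.08, adjusted p = 1.84e-05), and Ccn3, a matricellular protein, had 6973 to 11917 (median 8449.7) in WT control and 5430.1 to 8155 (median 7095) in the treated group (log2 fold change -0.40, SE 0.14, adjusted p = 0.0343), with an edgeR adjusted p of 0.0932. None of the 6 CA3 markers tested, of 7 listed, or of the 10 dentate gyrus markers was called by DESeq2 or edgeR. Spock1 of CA3 and Mpped1 of CA1, the members with the highest mean, had log2 fold changes of 0.07 (adjusted p = 0.783) and -0.11 (adjusted p = 0.480). Of 10 neocortical markers, Fezf2, a factor of deep-layer neurons, was called lower (log2 fold change -0.44, SE 0.10, adjusted p = 2.12e-04), and of 8 striatal markers Pde10a, a phosphodiesterase (log2 fold change -0.24, SE 0.08, adjusted p = 0.0458, edgeR adjusted p = 0.0971). Of 8 thalamic markers 3 were called higher, and 5 without WT control 1 and 5: Prkcd, protein kinase C delta, had 386 to 592 (median 437) in WT control and 571 to 794 (median 703) in the treated group (log2 fold change 0.60, SE 0.11, adjusted p = 4.34e-06), Zic1, a zinc finger factor, rose by 0.81 on the log2 scale (adjusted p = 8.88e-06) and Lef1, a Wnt effector, by 0.77 (adjusted p = 0.00107). The striatal list had 0 lower calls with edgeR and without WT control 5 and APP anti-miR-mix 6. How far the dissection contributed to these differences was not tested.

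The lower genes with the largest fold changes, among those with a mean of at least 50 normalized counts, took in 5 genes not yet described. They were 1700016P03Rik, a non-coding transcript, with 68.7 to 172 (median 109) in WT control and 32.3 to 68.3 (median 48.7) in the treated group (log2 fold change -1.12, SE 0.21, adjusted p = 7.85e-06), and 2600014E21Rik, with 76.0 to 237 (median 139) in WT control and 60.6 to 128 (median 106) in the treated group (log2 fold change -0.72, SE 0.25, adjusted p = 0.0468, edgeR adjusted p = 0.119). Plcz1, a phospholipase C, had a log2 fold change of -0.68 (adjusted p = 0.0155, edgeR adjusted p = 0.0539). Htr1f, a serotonin receptor, had 55.1 to 92.8 (median 76.3) in WT control and 35.2 to 53.7 (median 50.0) in the treated group (log2 fold change -0.66, SE 0.15, adjusted p = 4.96e-04), and Etv1, an ETS factor, had 2649.7 to 4288 (median 2882) in WT control and 1675 to 2417 (median 1871) in the treated group (log2 fold change -0.66, SE 0.12, adjusted p = 4.35e-06).

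Several families were looked at after the values of their members had been seen, and are given as a description, beside 3.62% lower and 6.1% higher over all genes and the larger lower shares of strongly counted and long genes. Of 20 dual-specificity phosphatases, PEA3 factors, Sprouty and Spred proteins, feedback regulators of the kinase cascade downstream of growth factors, 8 were called lower and none higher. They included Dusp1, Dusp4, Dusp5, Dusp6, Spred3, Etv1, Etv4 and Etv5. All 3 ryanodine receptors and Itpr1, the channels that release calcium from internal stores, were called lower, 4 of 6 in the family. Ryr2 had a log2 fold change of -0.23 (adjusted p = 0.00669) and Itpr1 one of -0.36 (adjusted p = 0.00407). Of 21 leucine-rich repeat adhesion proteins, which join synaptic membranes, 6 were called lower, and of 7 contactin-associated proteins 3. The 6 fell to 2 without APP anti-miR-mix 1, without WT control 5 and APP anti-miR-mix 6, and with edgeR. Of 42 collagens tested, 7 were called higher, Col1a1 and Col1a2 among them, and 1 lower, Col25a1, the collagen found in plaques and made by neurons (log2 fold change -0.43, adjusted p = 0.00972), with 0 lower without WT control 6 and without WT control 5 and APP anti-miR-mix 6.

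The share of genes called lower grew with the span of the gene and with its count. It was 1.05% for genes of up to 5000 bases and 18.6% for genes over 500000 bases, 41 of 220. Over these bins the median log2 fold change went from 0.01 to -0.12, and edgeR's share of lower calls from 0.487% to 11.8%. By mean count, the share went from 0.238% at up to 20 normalized counts to 15.6% above 10000. Within the genes of 3000 to 10000 normalized counts, 5.63% were called lower at a span of up to 20000 bases, 9.78% between 20000 and 100000 and 19.4% above that. The share called higher was 3.75% in the shortest bin, 7.76% at 100000 to 200000 bases and 3.64% in the longest bin. Within the genes of 3000 to 10000 normalized counts it was 6.02%, 1.89% and 1.98% from short to long spans, and within those of 300 to 1000 counts 7.07%, 8.41% and 10.1%. Span moved with the lower calls, and its part in them was not tested. By chromosome, 52 of 647 genes on chromosome 12 were called lower (8.04%), compared with 2.54 to 5.45% on the other autosomes and 2.95% on the X chromosome.

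**Figure D5:**
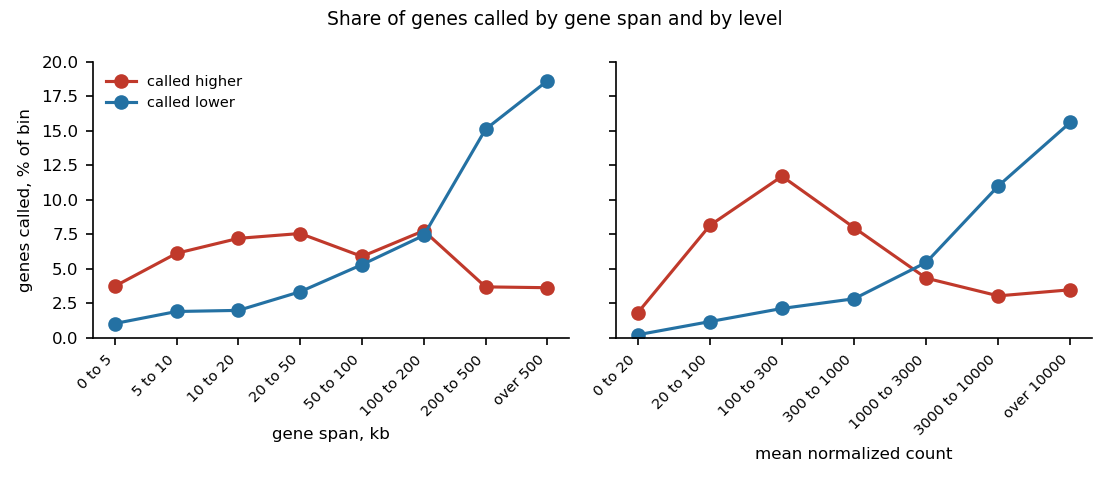
Share of tested genes called higher (red) or lower (blue), in percent of the bin, by gene span in kilobases (left) and by mean normalized count (right). The lower share rises to 18.6% for genes over 500 kb and to 15.6% above 10000 normalized counts.

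Sterol synthesis genes were called higher for 10 of 22 and lower for none, with a median log2 fold change of 0.22 and 8 calls by edgeR. Sqle, squalene epoxidase, had 1721 to 2085 (median 1835) in WT control and 2117 to 2970.3 (median 2339) in the treated group (log2 fold change 0.38, SE 0.08, adjusted p = 6.09e-05). Stard4, a carrier of cholesterol, rose by 0.60 on the log2 scale (adjusted p = 6.25e-05), Nsdhl, a sterol dehydrogenase, by 0.37 (adjusted p = 1.67e-04) and Srebf2, the factor that controls the pathway, by 0.20 (adjusted p = 0.0199). Among 24 chaperones, 3 cytosolic heat shock proteins were lower (3.62% over all genes) and 1 protein of the endoplasmic reticulum was higher (6.1% over all genes). The latter, Sdf2l1, had 169.5 to 220.0 (median 186) in WT control and 227 to 379 (median 304) in the treated group (log2 fold change 0.66, SE 0.12, adjusted p = 1.58e-06). The higher calls were 3 without WT control 1 or without APP anti-miR-mix 7, and 2 without WT control 1 and 5. The lower ones were Hsph1 (log2 fold change -0.18, adjusted p = 5.48e-04), Hsp90aa1 (log2 fold change -0.18, adjusted p = 0.00765, edgeR adjusted p = 0.0531) and Hspa8 (log2 fold change -0.18, adjusted p = 0.0115, edgeR adjusted p = 0.0535). Hsp90ab1, with the highest mean of the list, was not called (log2 fold change -0.11, adjusted p = 0.218).

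Of 17 clock genes, 3 were called higher and 2 lower (6.1% and 3.62% over all genes), while edgeR called 1 higher and 1 lower. The number called higher ran from 0 (without WT control 4) to 4 as libraries were left out. It was 1 without WT control 5 and APP anti-miR-mix 6. Arntl, the BMAL1 activator, fell (log2 fold change -0.25, adjusted p = 0.00450), as did its target Per1 (log2 fold change -0.29, adjusted p = 0.0150, edgeR adjusted p = 0.0512), while Bhlhe41, a repressor of the clock, rose (log2 fold change 0.31, adjusted p = 0.0121). Tef, a clock-controlled factor, was called higher (log2 fold change 0.11, adjusted p = 0.0291) but not by edgeR (adjusted p = 0.0810). The time of day at tissue collection was not given in the sources used here. Of 15 genes induced by glucocorticoids, 4 were called higher and 3 lower (6.1% and 3.62% over all genes). Among the higher ones were Plin4, a lipid droplet protein (log2 fold change 0.73, adjusted p = 1.13e-04), Sult1a1, a sulfotransferase (log2 fold change 0.45, adjusted p = 0.00269), and Cdkn1a, a cell cycle inhibitor (log2 fold change 0.50, adjusted p = 0.00626). The lower calls fell to 1 without WT control 4, WT control 6 or the pair of WT control 5 and APP anti-miR-mix 6, and edgeR called 0. The higher calls were 2 without that pair. Mt1, a metallothionein, was not called (log2 fold change 0.17, adjusted p = 0.239). No gene of 24 on the cell cycle and none of 18 myelin genes was called by DESeq2 or edgeR, though 1 or 2 cell cycle genes were called higher without WT control 1, WT control 4, APP anti-miR-mix 2 or APP anti-miR-mix 7, and 1 was lower without WT control 1. Mbp, the myelin basic protein, had a log2 fold change of -0.05 (adjusted p = 0.913). Of 12 genes of oligodendrocyte precursors, Bmp4, a growth factor of newly formed oligodendrocytes, was higher (log2 fold change 0.67, adjusted p = 0.0146, edgeR adjusted p = 0.0501) and Tnr, a matrix protein, lower (log2 fold change -0.27, adjusted p = 0.0354, edgeR adjusted p = 0.0877).

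The genes tied to the inhibited microRNAs are given for both directions, since inhibition of a microRNA is generally held to raise its targets. Of 1738 predicted targets of any of the 3 microRNAs that passed the filter, out of 1830 in the lists of the study, 91 were called higher (5.24%, beside 6.1% of all genes tested) and 121 lower (6.96%, beside 3.62%). The lower targets numbered 53 with edgeR, 73 without WT control 6, 165 without WT control 1, 68 without WT control 5 and APP anti-miR-mix 6, and 149 without WT control 1 and 5. Targets of miR-146a-5p had a median log2 fold change of -0.04, with 6.27% higher and 5.9% lower. Those of miR-148a-3p had -0.04, 5.1% and 5.41%, and those of miR-181a-5p -0.05, 4.51% and 7.51%, beside a median of -0.02 over all genes. With edgeR the lower targets were, in that order, 6 of 271, 10 of 628 and 40 of 1065, beside 1.5% of all genes. As single libraries were left out, DESeq2's lower counts of 16, 34 and 80 ran from 9 to 23, 16 to 48 and 49 to 112. Members of the lists are predicted, and span and count, which moved with the lower calls, were not matched. Dusp1, Slc8a1, Nr4a3, Etv1, Fos and Pex5l were the predicted targets with the smallest adjusted p among the lower genes. Aff2 and Hivep3, both nuclear factors, had 274 to 357 (median 327) and 3146 to 3916 (median 3509) in WT control and 267 to 348 (median 293) and 2948 to 3665 (median 3297) in the treated group, with log2 fold changes of -0.11 (adjusted p = 0.551) and -0.10 (adjusted p = 0.451).

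In the circuit of innate signalling that miR-146a is known for, 4 of 15 genes were called higher (7 without WT control 1) and none lower, among them Irak4 (log2 fold change 0.51, adjusted p = 0.00517), Nfkb1 (log2 fold change 0.24, adjusted p = 0.00606) and Tlr4 (log2 fold change 0.63, adjusted p = 0.0377, edgeR adjusted p = 0.0930). Irak1, a kinase of that circuit, was not called (log2 fold change 0.09, adjusted p = 0.241). Of 14 genes that make or use microRNAs, Dicer1, the nuclease that cuts the hairpin (log2 fold change -0.10, adjusted p = 0.0181), and Xpo5, the exporter of hairpins (log2 fold change -0.14, adjusted p = 0.0273), were lower, and edgeR called neither (adjusted p = 0.162 and 0.0889). DESeq2 called 0 of these genes without WT control 4 and 1 without WT control 5 and APP anti-miR-mix 6. Over all genes tested 6.1% were called higher and 3.62% lower.

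The APP control libraries place these differences. Against WT control, DESeq2 called 706 of 19297 genes higher in APP control (3.66%) and 202 lower (1.05%), in a fit of all 19 libraries. In the same fit 1078 genes were higher and 649 lower in the treated group. The genes called higher in the treated group had a median log2 fold change of 0.53 in APP control and 0.63 in the treated group. Both comparisons share the WT control libraries, so the resemblance of these medians is no independent result. The genes were also chosen by passing the test in the treated group, which tends to enlarge the treated median. The gap between the medians is therefore no result either. Between the treated group and APP control directly, no gene was called by DESeq2 (0.0%) or by edgeR, with 552 and 572 genes at an unadjusted p below 0.05 and smallest adjusted p-values of 0.0892 and 0.983. A p that misses the threshold does not show that the groups were alike.

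Some genes called between the treated group and WT control had a small fold change in APP control. Nptx2 had a log2 fold change of -0.93 in the treated group and -0.25 in APP control (adjusted p = 0.592), and the difference between treated and APP control was -0.68 (SE 0.17, adjusted p = 0.434). Cplx3, a complexin of the release machinery, had 158 to 489.6 (median 315) in WT control, 261 to 466 (median 316) in APP control and 243 to 733 (median 646) in the treated group, with log2 fold changes over WT control of 0.85 (adjusted p = 0.00791) in the treated group and 0.08 in APP control. Log2 fold changes in the treated group and in APP control were, for Lef1, 0.77 and 0.21, for Kcnh1 -0.24 and -0.02, and for 2600014E21Rik -0.72 and -0.02. For Cplx3, Lef1, Kcnh1 and 2600014E21Rik the treated libraries differed from APP control by log2 fold changes of 0.77, 0.56, -0.23 and -0.69, and none of these differences was called. The genes were picked out after their values were seen.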

How the data were processed

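CA1 tissue was sequenced as poly(A)-selected TruSeq libraries with single-end reads of 50 nt. Per the submitters' processing notes the authors aligned the reads to mm10 with STAR (2.5.2b) and counted them per gene with featureCounts (Subread 1.5.1), after FastQC (0.11.5), so the deposited count files hold raw counts for 48709 Ensembl genes, without normalization. The annotation release and strandedness are not given in the sources used here. The authors also deposited a normalized table on the log2 scale (18825 genes), which had been adjusted by a whole number per library whose meaning is not stated, and it served as an alternative. Symbols and positions came from GENCODE M21 (GRCm38), which matched 48349 of 48709 identifiers, and promoters and mature microRNAs from RefSeq on GRCm38.p6. The reads had no molecular identifiers.

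Libraries were taken as separate samples. The labels do not say that each came from its own animal or which shared a litter or batch, so p-values measure the spread between these libraries. No 2 libraries of a group agreed within sampling noise (lowest chi-square per gene 3.52 for WT control, 3.73 for the treated group). Replicate numbers were not used as pairs.

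Genes that reached 5 counts in 50% or more of the 13 libraries were tested with DESeq2 (1.42.0, unshrunken fold changes, independent filtering) and called at an adjusted p below 0.05. Independent filtering or outlying counts left 1126 genes without an adjusted p, and DESeq2 replaced outlying counts in 2 genes. APP control fold changes came from 1 fit of the 19 libraries, and its normalized counts were scaled to the 13 libraries. edgeR (4.0.16), limma (3.58.1), other filters and scalings, a replicate block, each library left out and pairs of libraries left out were alternatives. The script was tested on simulated data with far fewer changed genes than were called here. At an adjusted p below 0.05, 15.6% of DESeq2's calls there were false, above the nominal level, and 4.54% of edgeR's. For that reason edgeR's counts are given beside DESeq2's for the main calls and several lists. The principal components used log2 of the normalized count plus 1.

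The members, the 39 gene lists and the predicted targets, whose names come from the study's tables, were chosen with earlier results of these data known, and 6 further families after the values were seen. Named genes were the 10 higher and 16 lower protein-coding genes with the smallest adjusted p, the 6 higher and 10 lower called genes with the largest fold change at a mean of at least 50 normalized counts, in each list up to 4 called genes and the gene with the highest mean, up to 6 lower predicted targets, and Thy1, App, Aff2 and Hivep3. Some genes that met this rule are not reported here. Other genes named were chosen after their values were seen.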

Additional observations from a re-analysis of the deposited data

Results flagged for a closer look

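In groups of 6 or 7 libraries, a value was marked when its gap to the nearest other library, divided by the range of its group, exceeded Dixon's limit. This happened for 28 of 312 tests, where chance marks about 1 in 20. Normalized counts are given for the library that stood apart, and no explanation was tested.

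WT control 1 was high in 6 genes of immune response and complement, with 78.6 for H2-DMb1, 161 for H2-M3, 111 for Irak4, 1819 for Stat2, 875 for Irf9 and 11076 for C4b. For C4b the remaining 5 libraries of that group had 3935 to 5737. WT control 5 was high for Aqp4 (6535) and low for the neuropeptide genes Sst (5651) and Vgf (4780.4) and for Xpo5 (1889).

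WT control 4 was high in 5 genes, with 1172 for Nptx2, 15659 for Sipa1l1, 17270.3 for Scn8a, 3793 for Pde10a and 5796 for Tnrc6c, and low for Gjb6 (1023). Of these, Nptx2, Sipa1l1, Scn8a and Pde10a were called lower in the treated group. For Nptx2 the other WT control libraries reached 755, still above the highest treated library at 462. WT control 3 was high for Sphk1 (68.3) and Sult1a1 (176), and WT control 6 for Etv1 (4288).

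Among the treated libraries, APP anti-miR-mix 7 was high for Zic1 (391), Rims1 (9147) and Aff2 (348) and low for Ighm (732) and Irak1 (1999). APP anti-miR-mix 4 was high for Hbb-bs (1318), and APP anti-miR-mix 3 for Egr1 (5230.2). APP anti-miR-mix 1 was low for Gabrb2 (3008), and APP anti-miR-mix 2 for Slc1a2 (88654).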

How the results depend on the processing

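The number of genes called stayed within 1.5 times of 1878 under every alternative but one: requiring an absolute log2 fold change of at least 0.5 left 787 genes, 717 higher and 70 lower. The number of lower genes went from 699 to 290 with edgeR and to 423 without WT control 5 and APP anti-miR-mix 6, and the cause was not tested. Leaving out each library in turn gave 1361 to 2228 genes called, 943 to 1386 higher and 413 to 842 lower, with 413 without WT control 4, 418 without WT control 6 and 842 without WT control 1. limma on the deposited normalized values called 2066 genes, 1567 higher and 499 lower, so that 75.8% of calls were higher, compared with 62.8% for DESeq2. TMM factors in DESeq2 gave 1264 higher and 570 lower. With the whole number per library behind the deposited table as a factor, 1160 genes were higher and 852 lower. A fit with the replicate number as a replicate block on libraries 1 to 6 called 1911 genes, 1154 higher and 757 lower, and 10 of the 140 named calls were lost in it (Htr1f, Ly6c1, Grin2b, Plcz1, Dicer1, Xpo5, Tef, Ccn3, Tlr4 and 2600014E21Rik). Same-numbered libraries correlated in their deviations from the group means by 0.0059 to 0.48 (mean 0.28, against -0.05 for other pairs), and 2 of 6 WT control and 3 of 6 treated libraries correlated best with their own number, so the numbers were not taken to pair the animals. No named call changed direction under any of the 25 alternatives, 96 of the 140 were kept under each of them, and 26 were lost with edgeR, with Egr1, Gria1, Gria3 and Gad1 among them. The fit with sex as a covariate was not run, since the counts put all 13 libraries in the same sex. APP control against WT control gave 908 calls with DESeq2 and 621 with edgeR. These files limit a gene at 0 counts in a library to 3 counts at most, for counting error alone.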
